A study of Rattus norvegicus with 6 samples.

Results

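The elastic fibre genes described here are 10 genes: Eln, Fbn1, Fbln1, Fbln2, Fbln5, Efemp1, Efemp2, Emilin1, Mfap4 and Mfap5. They were listed by gene name, with earlier results of these data known, and are 10 of the 40995 genes in the deposited tables. Each name matched 1 row there. Whole lung was compared between 3 knockout (KO) rats of the crTMPRSS2 line, in which Tmprss2 was edited with CRISPR/Cas9, and 3 wild-type (WT) rats. Both groups had a Sprague-Dawley background and received no treatment. Poly-A RNA was captured and sequenced as read pairs. The sources used here do not give the rats' age or sex, the edited sequence, or whether the KO rats descend from 1 founder. The labels call the samples biological replicates and give all 6 libraries 1 batch name.

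Elastic fibres give the lung its recoil. Their core is elastin, secreted as soluble tropoelastin by fibroblasts and smooth muscle cells and made insoluble by crosslinking enzymes of the lysyl oxidase family. The core is laid down on a scaffold of microfibrils, whose backbone is fibrillin, and fibulins and other microfibril-associated glycoproteins guide its assembly. Mature elastin is long-lived, and mRNA levels do not measure the amount of fibre in the tissue.

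Total counts were 29933359 to 30514778 in the KO libraries and 33033732 to 36895162 in the WT libraries. Counts of single elastic fibre genes lay between 675 and 132036, and all 10 genes passed the filter on low counts. WT replicate 1 lay far from the rest, at -108.6 on a first principal component that held 59.8% of the variance, where the others lay between 9.09 and 30.6. The level of Acta1, which encodes skeletal muscle actin, was 5077 CPM (counts scaled to a common library size) in that library and 0.694 to 2.39 CPM in the other 5, and that of Krt13, a keratin of squamous epithelium, was 1339 CPM against at most 0.429 CPM. Summed over 11 squamous epithelium markers, the level was 3140 CPM in WT replicate 1 and 7.80 to 11.9 CPM in the other 5 libraries, where 7 of the 11 genes stayed under 1 CPM. The tests of the 10 elastic fibre genes are therefore given with all 6 libraries and again without WT replicate 1. Some results on other genes are given for 1 of these sets of libraries only, as named. Markers of alveolar epithelium summed to 19528 to 21038 CPM in KO and 22812 to 35622 CPM in WT, and were thus present in both groups. Tmprss2 itself stood at 46.1, 56.4 and 47.0 CPM in KO and 50.5, 62.0 and 65.7 CPM in WT, with log2 fold changes of -0.25 with all 6 libraries and -0.36 without WT replicate 1 (edgeR adjusted p 0.508 and 0.0589). The mRNA of the targeted gene was thus still present in KO, and a gene total does not show whether a small edit disrupts the protein.

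Mfap4 and Eln made up most of the elastic fibre mRNA. On the deposited FPKM scale, which corrects for gene length and library size, Mfap4 alone held 72.8% ± 2.23 of the summed level of the 10 genes in KO and 71.1% ± 1.22 in WT (SD, n = 3 each), and Eln held 17.2% ± 2.01 in KO and 19.3% ± 1.24 in WT. The sum itself was 2766, 2513 and 2464 FPKM in KO replicates 1 to 3, against 3911, 3282 and 2993 FPKM in WT replicates 1 to 3. Every KO library lay below every WT library in this sum, and hence also below WT replicates 2 and 3 alone. An exact two-sided permutation test gave p = 0.1, the smallest value that 3 against 3 samples allow. Since Mfap4 and Eln make up most of the sum, it says little of the other genes. Among single genes in CPM, 11.4% showed such a gap with KO lower, and 17.5% did without WT replicate 1. Bulk RNA cannot tell fewer cells of a producing type from less of these transcripts per cell.

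**Figure D1:**
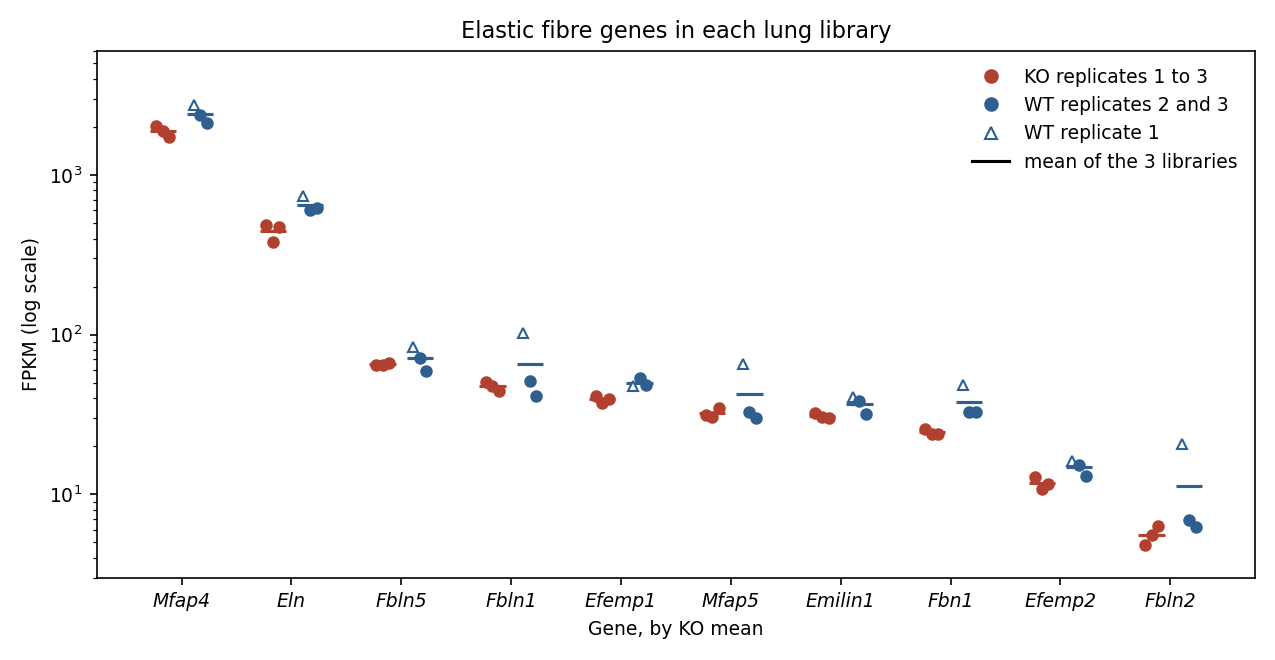
Level of each elastic fibre gene in each of the 6 lung libraries, in FPKM on a log axis, with KO left of WT for each gene; points are libraries, the open triangle is WT replicate 1 and the bars are means of 3 libraries. KO means run down the axis from 1878 FPKM for Mfap4 to 5.58 FPKM for Fbln2, and WT replicate 1 lies far above WT replicates 2 and 3 for Fbln1, Mfap5 and Fbln2.

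In the KO lungs the order of the levels below Eln was Fbln5 (65.3 ± 1.13 FPKM), Fbln1 (47.7 ± 2.95), Efemp1 (39.5 ± 2.09), Mfap5 (32.2 ± 2.16), Emilin1 (31.0 ± 1.34), Fbn1 (24.6 ± 1.08), Efemp2 (11.8 ± 1.09) and Fbln2 (5.58 ± 0.772) (SD, n = 3). Among neighbours in that order, only Mfap5 and Emilin1 had overlapping libraries. In the WT lungs the same genes stood at 71.5 ± 12.5 FPKM for Fbln5, 65.1 ± 33.1 for Fbln1, 49.8 ± 3.07 for Efemp1, 42.7 ± 19.7 for Mfap5, 38.0 ± 9.11 for Fbn1, 36.9 ± 4.497 for Emilin1, 14.8 ± 1.63 for Efemp2 and 11.3 ± 8.19 for Fbln2 (SD, n = 3). There, every neighbouring pair of these 8 genes had overlapping libraries except Emilin1 and Efemp2. In WT replicates 2 and 3 alone, the means in FPKM were 65.2 for Fbln5, 50.8 for Efemp1, 46.2 for Fbln1 and 35.1 for Emilin1. Below these came Fbn1 at 32.8, Mfap5 at 31.3, Efemp2 at 14.1 and Fbln2 at 6.58. Among neighbours in that order, only Efemp1 with Fbln1 and Emilin1 with Fbn1 had overlapping libraries.

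Fbn1, Eln and Efemp1 fell in KO once WT replicate 1 was left out, and none of the 10 passed with all 6 libraries. Calls used the quasi-likelihood test of edgeR, with p-values adjusted by Benjamini-Hochberg over all genes tested and a threshold of 0.05. With all 6 libraries, 0 of the 10 genes passed, where 0.0542% of 18464 genes did in either direction (0.0379% lower and 0.0162% higher). DESeq2 passed 2 of the 10, Eln and Fbn1, but it passed 501 of 18464 genes, 307 lower and 194 higher. In edgeR's test, 5 of the 10 had an unadjusted p under 0.05 and were lower in KO, a class that held 6.29% of all genes. Without WT replicate 1, 3 of the 10 passed as lower and 0 as higher, where 3.99% of 18994 genes passed, 2.34% as lower and 1.65% as higher; 5 of the 10 were lower at an unadjusted p under 0.05, as were 9.28% of all genes. The median log2 fold change of the 10 genes was -0.38 with all 6 libraries and -0.25 without WT replicate 1, beside medians of -0.0029 and 0.0036 over all genes tested. With all 6 libraries, 10 of the 10 log2 fold changes were below 0, against 50.3% of all genes; without WT replicate 1, 7 of the 10 were, against 49.3%.

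The KO libraries lay wholly below the WT libraries in CPM for 5 of the 10 genes, namely Eln, Fbn1, Efemp1, Efemp2 and Mfap4. This held with all 6 libraries, where 11.4% of genes showed such a gap with KO lower, and without WT replicate 1, where 17.5% did.

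**Figure D2:**
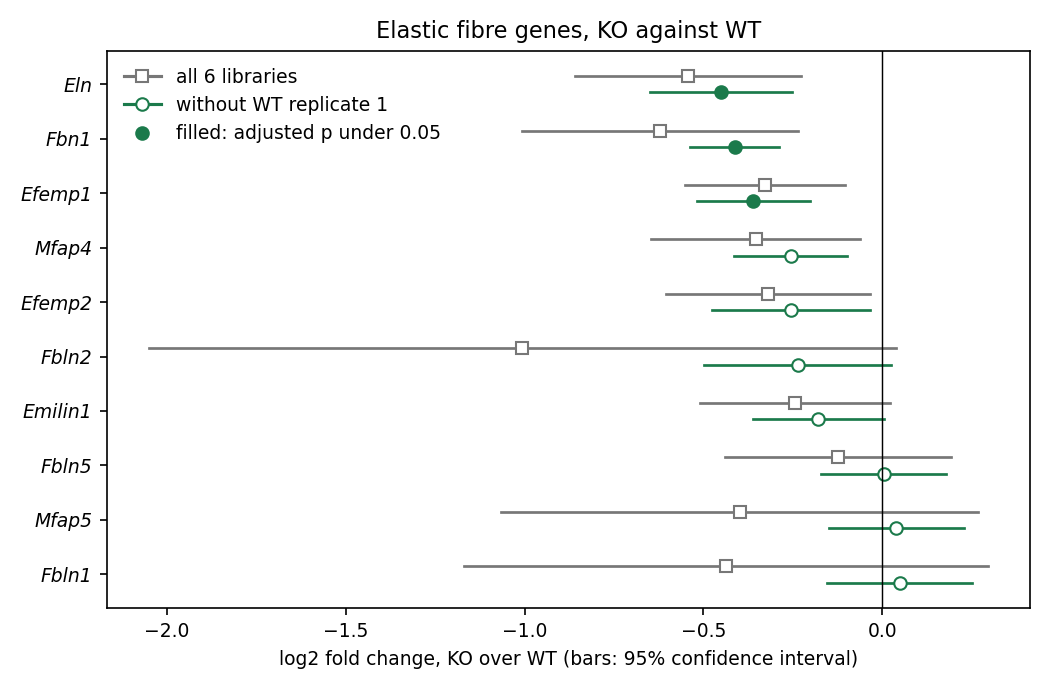
log2 fold change of each gene, KO over WT, with its 95% confidence interval from edgeR's quasi-likelihood fit; squares use all 6 libraries, circles leave out WT replicate 1, and filled symbols have an adjusted p under 0.05. Eln, Fbn1 and Efemp1 are filled in the fit without WT replicate 1, and the intervals of Fbln1, Mfap5 and Fbln2 narrow most when that library is left out.

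Eln encodes tropoelastin, the core protein of the fibre (chromosome 12, 21968544 to 22011929 of mRatBN7.2, plus strand). It stood at 487, 379 and 469 FPKM in KO replicates 1 to 3, against 737, 601 and 619 FPKM in WT replicates 1 to 3. The groups did not overlap, and KO replicate 2 was the lowest of the 6 libraries. The log2 fold change was -0.54 with all 6 libraries (SE 0.13, 95% interval -0.86 to -0.23, edgeR adjusted p = 0.259) and -0.45 without WT replicate 1 (SE 0.09, -0.65 to -0.25, adjusted p = 0.0217). The call in the 5-library fit was lost when WT replicate 2 or WT replicate 3 was left out as well, with edgeR adjusted p of 0.0826 and 0.0895 at log2 fold changes of -0.47 and -0.43. A lncRNA gene, LOC102553484, overlaps the start of Eln on the other strand; its counts were at most 103, against at least 43620 for Eln. LOC120101649 and LOC120093703, which overlap Fbn1 and Fbln1 on the other strand, had at most 6 and 22 counts.

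Fbn1 encodes fibrillin-1, the backbone of the microfibril and the gene mutated in Marfan syndrome (chromosome 3, 112554257 to 112750835, minus strand). Its level was 25.8, 23.9 and 24.0 FPKM in KO, against 48.6, 32.7 and 32.9 FPKM in WT replicates 1 to 3. The KO libraries were within 2 FPKM of each other, all below the lowest WT library. The log2 fold change was -0.62 with all 6 libraries (edgeR adjusted p = 0.271, SE 0.16) and -0.41 without WT replicate 1 (SE 0.06, 95% interval -0.54 to -0.29, adjusted p = 0.0040), so that Fbn1 fell by 24.9% in that fit. Among the 5 fits that left out 1 further library, Fbn1 passed in 5, with edgeR adjusted p from 0.0102 to 0.0399.

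Efemp1 encodes fibulin-3, a short fibulin of the extracellular matrix (chromosome 14, 102610813 to 102690027, plus strand). It stood at 41.4, 37.3 and 39.8 FPKM in KO, against 47.9, 53.4 and 48.2 FPKM in WT. It was the only one of the 10 genes for which WT replicate 1 was not the highest library in CPM, and its value changed little without that library: the log2 fold change was -0.33 with all 6 libraries (edgeR adjusted p = 0.301, SE 0.10) and -0.36 without it (SE 0.07, 95% interval -0.52 to -0.20, adjusted p = 0.0215). The 5-library call was lost without WT replicate 2 (edgeR adjusted p = 0.133) and without KO replicate 2 (0.108).

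Mfap4 and Efemp2 had separate groups but did not pass in either fit. Mfap4 encodes a microfibril-associated glycoprotein that binds elastin and fibrillin (chromosome 10, 46167158 to 46170176, plus strand). It stood at 2015, 1883 and 1737 FPKM in KO, against 2748, 2379 and 2112 FPKM in WT, with log2 fold changes of -0.35 (edgeR adjusted p = 0.379, SE 0.12) with all 6 libraries and -0.26 (adjusted p = 0.0810, SE 0.07) without WT replicate 1. Efemp2 encodes fibulin-4, which brings lysyl oxidase to tropoelastin (chromosome 1, 202781692 to 202789784, plus strand). It stood at 12.9, 10.7 and 11.7 FPKM in KO, against 16.2, 15.2 and 13.0 FPKM in WT. WT replicate 3 and KO replicate 1 differed by less than 0.1 FPKM, so the gap between the groups was narrow. Its log2 fold changes were -0.32 (edgeR adjusted p = 0.402, SE 0.12) and -0.25 (adjusted p = 0.213, SE 0.10).

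Emilin1, Fbln5, Fbln1, Mfap5 and Fbln2 had overlapping groups. Emilin1 encodes a glycoprotein at the interface of elastin and microfibrils (chromosome 6, 25455974 to 25463736, minus strand) and stood at 32.5, 30.4 and 30.02 FPKM in KO, against 40.5, 38.4 and 31.9 FPKM in WT. Its log2 fold changes were -0.24 with all 6 libraries and -0.18 without WT replicate 1 (edgeR adjusted p 0.461 and 0.293). Fbln5 encodes fibulin-5, which links tropoelastin to microfibrils and binds integrins (chromosome 6, 120899219 to 120977829, minus strand). It stood at 64.8, 64.5 and 66.6 FPKM in KO, against 84.1, 71.4 and 59.0 FPKM in WT, so the KO values lay inside the WT range. Its log2 fold change was -0.12 with all 6 libraries (edgeR adjusted p = 0.699). Without WT replicate 1 it was 0.0047 (adjusted p = 0.985), with a 95% interval of -0.17 to 0.18 that does not reach the -0.41 and -0.45 of Fbn1 and Eln.

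The makeup of the elastic fibre mRNA was compared as shares of that sum. Fbln5 held 2.34%, 2.57% and 2.70% of the summed FPKM of the 10 genes in KO, against 2.15%, 2.18% and 1.97% in WT. Emilin1 held 1.18%, 1.21% and 1.22% in KO, against 1.04%, 1.17% and 1.06% in WT, and Fbn1 held 0.934%, 0.953% and 0.973% in KO, against 1.24%, 0.996% and 1.10% in WT. In these 3 of the 10 shares the groups did not overlap with all 6 libraries, with KO higher for Fbln5 and Emilin1 and lower for Fbn1. Each gave p = 0.1 in an exact two-sided permutation test, the smallest possible, before any adjustment over the 10 shares. Without WT replicate 1 the groups were also apart for Fbln1 and Mfap5, with KO higher. Fbln1 held 1.83%, 1.90% and 1.81% in KO, against 1.56% and 1.38% in WT replicates 2 and 3. Mfap5 held 1.13%, 1.21% and 1.40% in KO, against 0.994% and 1.00% in those WT libraries. How often such gaps arise in shares of other sets of genes was not tested. Shares of 1 sum are linked, since a lower Mfap4 or Eln raises the others.

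Fbln1, Fbln2 and Mfap5 were far higher in WT replicate 1 than in the other 5 libraries, and none of these genes passed in either fit. Fbln1, fibulin-1 of elastic fibres and basement membranes (chromosome 7, 116310582 to 116390075, plus strand), stood at 50.6, 47.9 and 44.7 FPKM in KO, against 103, 51.1 and 41.3 FPKM in WT replicates 1 to 3. Mfap5, the microfibril-associated glycoprotein MAGP-2 (chromosome 4, 155727925 to 155750458, plus strand), stood at 31.4, 30.5 and 34.6 FPKM in KO, against 65.4, 32.6 and 30.1 FPKM in WT. Fbln2, fibulin-2 (chromosome 4, 123704289 to 123763857, plus strand), stood at 4.81, 5.57 and 6.35 FPKM in KO, against 20.8, 6.94 and 6.22 FPKM in WT. In each case 1 library, WT replicate 1, lay far above the rest, and the other WT libraries were near the KO values.

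With all 6 libraries the log2 fold changes of these 3 genes were -0.44 for Fbln1 (SE 0.31), -0.40 for Mfap5 (SE 0.28) and -1.01 for Fbln2 (SE 0.45), with edgeR adjusted p of 0.588, 0.588 and 0.446. Without WT replicate 1 they were 0.05, 0.04 and -0.24, with 95% intervals of -0.16 to 0.25, -0.15 to 0.23 and -0.50 to 0.03 and edgeR adjusted p of 0.849, 0.871 and 0.338. In FPKM, WT replicate 1 stood at 2.23 times the mean of WT replicates 2 and 3 for Fbln1, 2.09 times for Mfap5 and 3.15 times for Fbln2, and at 0.943 to 1.48 times for the other 7 genes. It was the highest library in CPM for 9 of the 10 genes, against 36.4% of all genes tested. The part of the squamous epithelium and muscle transcripts of that library in these values was not tested.

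**Figure D3:**
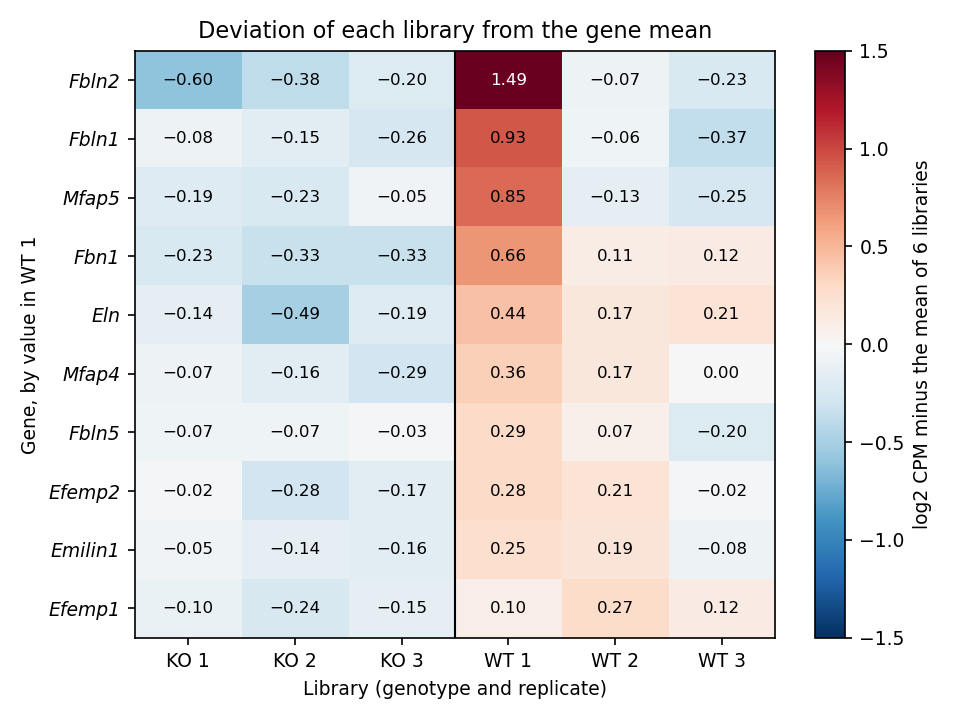
Deviation of log2 CPM from the mean of the 6 libraries for each gene (rows, by value in WT replicate 1) in each library (columns, KO left of WT); red is higher and blue lower. Fbln2, Fbln1 and Mfap5 are high in WT replicate 1 alone, at 1.49, 0.93 and 0.85, while Eln, Fbn1 and Efemp1 are above the mean in each WT library and below it in each KO library.

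RefSeq promoter sequences (build GRCr8) matched 6 of the 10 genes, all but Eln, Fbln1, Emilin1 and Mfap4. The 250 bases before the listed start are shown for a pair of genes that fell without WT replicate 1, Fbn1 and Efemp1, and a pair whose values overlapped between genotypes, Fbln5 and Mfap5. Capitals mark matches on either strand to 5 short motifs: TATAAA (the TATA box), GGGCGG (the GC box), CCAAT (the CCAAT box), TGANTCA (the AP-1 site) and CAGAC (a SMAD-binding sequence). No motif contains another. The windows are Fbn1 at chr3:133203391-133203640 on the minus strand, Efemp1 at chr14:106811614-106811863 on the plus strand, Fbln5 at chr6:126742707-126742956 on the minus strand and Mfap5 at chr4:157399669-157399918 on the plus strand.
Fbn1: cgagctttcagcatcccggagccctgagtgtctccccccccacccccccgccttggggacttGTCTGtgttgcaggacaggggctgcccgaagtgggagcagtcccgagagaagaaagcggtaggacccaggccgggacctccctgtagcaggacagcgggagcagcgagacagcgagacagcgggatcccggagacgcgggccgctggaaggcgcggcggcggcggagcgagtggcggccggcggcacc
Efemp1: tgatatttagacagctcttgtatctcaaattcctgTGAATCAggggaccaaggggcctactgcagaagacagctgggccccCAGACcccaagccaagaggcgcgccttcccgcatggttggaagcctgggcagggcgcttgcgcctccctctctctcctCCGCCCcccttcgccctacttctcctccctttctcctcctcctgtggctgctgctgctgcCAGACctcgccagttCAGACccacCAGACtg
Fbln5: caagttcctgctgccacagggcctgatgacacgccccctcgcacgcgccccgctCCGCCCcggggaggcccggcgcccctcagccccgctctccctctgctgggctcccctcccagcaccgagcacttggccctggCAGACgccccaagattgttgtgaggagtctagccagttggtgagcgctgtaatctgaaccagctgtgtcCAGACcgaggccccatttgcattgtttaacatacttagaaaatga
Mfap5: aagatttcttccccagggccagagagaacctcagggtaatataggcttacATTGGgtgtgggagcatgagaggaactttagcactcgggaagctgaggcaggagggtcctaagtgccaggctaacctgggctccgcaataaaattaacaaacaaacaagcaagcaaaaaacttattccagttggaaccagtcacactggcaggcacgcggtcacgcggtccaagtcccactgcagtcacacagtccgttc
The CAGAC letters occurred 1 time before Fbn1, 4 times before Efemp1, 2 times before Fbln5 and 0 times before Mfap5, and 42.9% of the 33469 RefSeq promoter windows of this length held them. TGANTCA occurred before Efemp1 alone of these 4 genes, and in 6.34% of all windows. GGGCGG was matched 1 time before Efemp1 and 1 time before Fbln5 (30.5% of all windows), CCAAT 1 time before Mfap5 (34% of all windows) and TATAAA in 0 of the 4 (12.9% of all windows). The windows of Fbn1, Efemp1, Fbln5 and Mfap5 were 71.2%, 61.2%, 63.2% and 51.6% G and C, beside a median of 51.2% over all windows. A match is a string of letters and not evidence of binding, and GRCr8 is a later build than the one the counts use.

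Other genes of elastic fibre biology were read from 5 lists of 46 genes. Without WT replicate 1, 8 of the 43 tested genes fell and 0 rose, where 2.34% of all genes passed as lower and 1.65% as higher. With all 6 libraries 0 of the 43 passed in edgeR's test. At an unadjusted p under 0.05 in that fit, 22 of the 43 were lower and 1 was higher, against 6.29% and 5.04% of all genes. The median log2 fold change over the 43 was -0.33 with all 6 libraries and -0.24 without WT replicate 1.

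Among 6 genes of crosslinking, Loxl1 and Loxl2 fell without WT replicate 1. Loxl1, the lysyl oxidase-like enzyme that binds fibulin-5, stood at 91.2, 82.1 and 85.7 FPKM in KO, against 143, 122 and 106 FPKM in WT, with a log2 fold change of -0.40 (edgeR adjusted p = 0.0168, SE 0.07) without WT replicate 1. Loxl2 stood at 9.43, 9.25 and 9.33 FPKM in KO, against 18.3, 13.4 and 12.7 FPKM in WT, with a log2 fold change of -0.48 (edgeR adjusted p = 0.0036, SE 0.06). Their KO and WT libraries did not overlap. Lox, lysyl oxidase itself, stood at 33.0, 25.9 and 25.9 FPKM in KO, against 19.1, 32.7 and 29.9 FPKM in WT, and was lowest in WT replicate 1; Lox was chosen after its values were seen. Loxl4 and Atp7a, the copper transporter that loads these enzymes, had log2 fold changes of -0.37 and -0.08 without WT replicate 1 and did not pass.

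Among 17 microfibril partners, Ltbp2 and Adamtsl2 fell without WT replicate 1; 12 of the 17 were below 0 in that fit, 6 of them at an unadjusted p under 0.05, and 1 was higher at that level. Ltbp2, a fibrillin-like binding protein of the microfibril, stood at 33.4, 29.3 and 34.1 FPKM in KO, against 51.0, 40.9 and 38.8 FPKM in WT, with a log2 fold change of -0.30 (edgeR adjusted p = 0.0453, SE 0.07). Adamtsl2, which binds fibrillin-1, stood at 16.9, 14.7 and 15.5 FPKM in KO, against 15.1, 25.0 and 26.7 FPKM in WT replicates 1 to 3. WT replicate 1 lay among the KO libraries for this gene, and the log2 fold change was -0.72 (edgeR adjusted p = 0.000836, SE 0.07) without it and -0.50 (adjusted p = 0.440) with it. Vcan, versican, and Bgn, biglycan, did not pass, at log2 fold changes of -0.58 and -0.29 without WT replicate 1 (edgeR adjusted p 0.0506 and 0.0910). Of 3 TGF-beta ligands, which induce elastin synthesis, Tgfb2 fell without WT replicate 1 by 0.40 on the log2 scale (edgeR adjusted p = 0.0259, SE 0.08), while Tgfb1 and Tgfb3 stood at -0.03 and -0.15 and did not pass.

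Of 14 tested proteases and inhibitors that act on elastin or its proteases, 3 fell without WT replicate 1 and 0 rose. In each of the fits 11 of the 14 were below 0, 10 of them at an unadjusted p under 0.05, and 1 was higher at that level. Among these genes, Mmp2, a gelatinase that also cleaves elastin, fell by 0.41 on the log2 scale without WT replicate 1 (edgeR adjusted p = 0.0082, SE 0.06), Ctsl, cathepsin L, by 0.31 (adjusted p = 0.0488, SE 0.08) and Timp1, an inhibitor of matrix metalloproteases, by 0.48 (adjusted p = 0.0369, SE 0.11). Mmp12, the macrophage elastase, stood at 1.06, 1.41 and 1.40 FPKM in KO, against 3.48, 2.91 and 2.04 FPKM in WT, with log2 fold changes of -1.11 and -0.93 with and without WT replicate 1 (edgeR adjusted p 0.256 and 0.0765). In the authors' deposited table of 192 genes Mmp12 was listed at a log2 fold change of -1.12 with an adjusted p of 0.0247, and 0 of the 10 elastic fibre genes were listed. The largest adjusted p in that table was 0.0479, and whether it was also cut by fold change was not tested. In the DESeq2 fit made here, Eln and Fbn1 passed at -0.55 and -0.63 (adjusted p 0.0228 and 0.0361). Absence from the authors' table therefore does not mean that a gene failed their test. Prtn3, the neutrophil serine protease proteinase 3, and Mmp9, a gelatinase of neutrophils and macrophages, had positive log2 fold changes, of 1.14 and 1.05 with all 6 libraries and 1.08 and 0.75 without WT replicate 1. Neither passed (edgeR adjusted p 0.402 and 0.445, and 0.277 and 0.349), their counts were at most 69 and 106 in a library, and both were named after their values were seen. Glb1, Ctsa and Neu1, from the loci of the elastin receptor complex, had log2 fold changes of -0.25, -0.22 and -0.24 without WT replicate 1, and none passed (edgeR adjusted p 0.124, 0.0690 and 0.175; unadjusted p under 0.05 for 3 of 3).

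**Figure D4:**
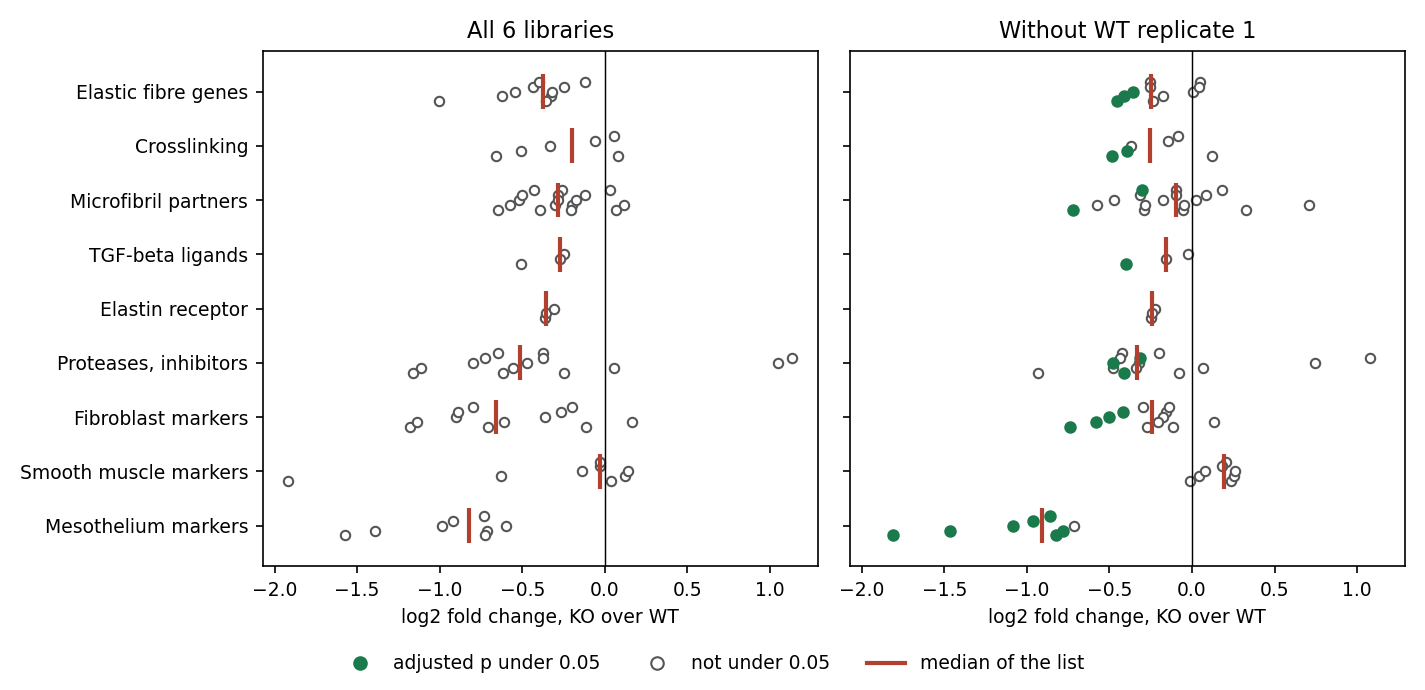
log2 fold change, KO over WT, of the tested genes of each list with all 6 libraries (left) and without WT replicate 1 (right); filled points have an adjusted p under 0.05 in edgeR's quasi-likelihood test and red bars are list medians. The elastic fibre median is -0.38 on the left and -0.25 on the right, between the medians of the mesothelium markers (-0.82 and -0.91) and of the smooth muscle markers (-0.03 and 0.20). The median of the fibroblast markers is -0.66 on the left and -0.24 on the right.

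Markers of cells that can produce elastic fibre components were read from 3 lists. Fibroblast markers (12 genes) summed to 5368 to 5670 CPM in KO and 6785 to 10998 CPM in WT, and 4 of the 12, Col14a1, Col1a1, Col1a2 and Col3a1, fell without WT replicate 1, at log2 fold changes of -0.74, -0.50, -0.58 and -0.42. These 4 are collagens (edgeR adjusted p from 0.0017 to 0.0208). In that fit 11 of the 12 fibroblast markers were below 0, while Pdgfra, named after its values were seen, stood at 0.13. At an unadjusted p under 0.05, 8 of the 12 were lower and 0 higher, where 9.28% of all genes were lower and 8.52% higher. Tcf21, also named after its values were seen, stood at -0.28 without WT replicate 1 and did not pass (edgeR adjusted p = 0.0690). The collagens are matrix genes as well as markers, and whether the number of fibroblasts differed was not tested. Smooth muscle markers (8 genes) summed to 1200 to 1258 CPM in KO and to 951 to 2218 CPM in WT, with 0 of the 8 passing in either fit and 4 of the 8 higher and 0 lower in KO at an unadjusted p under 0.05 without WT replicate 1, beside the same 8.52% and 9.28% of all genes. Des, Lmod1, Myocd and Myh11 had log2 fold changes of -0.01, 0.04, 0.08 and 0.24 in that fit and -1.92, -0.63, 0.14 and 0.12 with all 6 libraries. Mesothelium markers (8 genes) summed to 116 to 174 CPM in KO and to 205 to 256 CPM in WT, and 7 of the 8 fell without WT replicate 1. The smooth muscle sum in WT replicate 1 was 1.91 times, and the fibroblast sum 1.78 times, the mean of the other 5 libraries. The part of these cell types in the levels of the elastic fibre genes was not tested.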

How the data were processed

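Titles in the labels gave group and replicate. The submitters' processing notes name the build mRatBN7.2 and the tools DESeq2 1.42.0, featureCounts 2.0.6, StringTie 2.2.3, HISAT2 2.2.1 and CASAVA; the sources used here do not give their roles or their strand and multi-mapping settings. Raw gene counts and FPKM values were deposited by the authors, and the FPKM were checked to be counts over length and over a depth that scales with DESeq2's size factor. The authors' deposited comparison table gives log2 fold changes, p-values and a normalized signal. Even counts outnumbered odd ones among low counts (3171 against 1641 genes in WT replicate 1), a sign that both mates of a pair were counted.

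Counts were tested in R 4.3.3 with edgeR 4.0.16 (TMM; filterByExpr, whose minima were 10 counts and 15 in total; quasi-likelihood F test; genotype alone, 3 against 3 and 3 against 2 libraries). Standard errors are the log2 fold change over the square root of F; CPM use TMM library sizes. The test was tried on simulated data without a library that stands apart like WT replicate 1, and no result here rests on that trial. Of 145 genes in 16 further lists, 144 matched the table, 1 by a RefSeq synonym. Members and lists were chosen with earlier results of these data known. All 10 members are named, and for each list the genes past the threshold in either fit, filled up to 4 by the smallest p with all 6 libraries. Alternatives used limma 3.58.1 and DESeq2 1.42.0. The p-values measure the spread between these rats. Coordinates are those of the deposited table.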

Additional observations from a re-analysis of the deposited data

How the results depend on the processing

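Across 17 alternatives to the fit with all 6 libraries, the log2 fold changes of Eln, Fbn1, Fbln2, Efemp1, Efemp2, Emilin1 and Mfap4 stayed below 0, and across 15 alternatives to the 5-library fit those of the same 7 genes did. With all 6 libraries, where 10 genes and 0 elastic fibre genes passed (2092 genes at an unadjusted p under 0.05), DESeq2 passed 501 genes and 2 elastic fibre genes (Eln and Fbn1), and limma-voom with sample quality weights passed 1676 and 6 (all but Fbln1, Fbln2, Fbln5 and Mfap5). Unfiltered log2(FPKM + 1) passed 4 genes. Leaving out 1 library gave 1 to 758 genes, 0 to 3 elastic fibre genes and a median of -0.51 to -0.25; the 758 and the 3 are without WT replicate 1. The leave-one-out log2 fold changes of Fbln1, Fbln5 and Mfap5 ran from -0.68 to 0.049, -0.24 to 0.0047 and -0.60 to 0.040, above 0 without WT replicate 1 alone.

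In the 5-library fit, with 758 genes and 3 elastic fibre genes, DESeq2 passed 1188 genes and the edgeR fit without a filter 1707, each with Mfap4 added to the elastic fibre genes, 4 in all. limma on log2(FPKM + 1) passed 180 genes, on log2(FPKM + 0.1) 236, each with Fbn1 alone of the elastic fibre genes, and on unfiltered log2(FPKM + 1) 24 and 0. Leaving out 1 more library gave 233 to 522 genes, 1 to 3 elastic fibre genes and a median of -0.33 to -0.15; without WT replicate 2, 1 passed (Fbn1) and the median was -0.15. Where 1 WT library is left, it is assumed to vary like the KO libraries. Fbln1, Fbln5 and Mfap5 ran from -0.10 to 0.21, -0.13 to 0.15 and -0.024 to 0.10. The causes were not tested.

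The titles give a replicate number but no pairing of KO with WT libraries. Deviations from the group means correlated across genes at -0.08, 0.03 and -0.08 for same-numbered libraries. For libraries with unlike numbers the values ran from -0.11 to 0.12. With 3 libraries per group and WT replicate 1 far from the rest, these values cannot show whether libraries were paired. With a replicate block, 2 genes and 0 elastic fibre genes passed with all 6 libraries, and 580 genes and 4 elastic fibre genes (Mfap4 added) without WT replicate 1.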

Other observations

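Among 10967 genes with a mean of at least 10 CPM, the 5 outside the list whose log2 CPM ran closest to that of Eln over the 6 libraries were RGD1559482, Thbs1, Efnb1, Itpkc and Pvr, with root mean square differences of 0.040, 0.047, 0.053, 0.060 and 0.062 on the centred log2 scale. Thbs1 encodes the matricellular glycoprotein thrombospondin-1, Efnb1 an ephrin ligand, Itpkc an inositol trisphosphate kinase and Pvr a nectin-like adhesion protein. The closest elastic fibre gene was Fbn1, at 0.139 and rank 121, followed by Efemp2 at 0.150 and Mfap4 at 0.171. Fbln2 was the most distant of the list, at 0.511 and rank 9196.

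Other marker lists differed too. Without WT replicate 1, the mesothelium markers that fell were Bnc1 (-1.81 on the log2 scale), Wt1 (-1.47), Lrrn4 (-1.08), Upk3b (-0.96), Muc16 (-0.86), Upk1b (-0.82) and Rspo1 (-0.78). The club cell genes Scgb1a1 and Scgb3a2 rose by 0.38 and 0.48 and were 2 of the 7 airway genes tested, with Krt5 and Tp63 at 0.55 and -0.03 and not passing. Of 7 immune markers 4 rose, Prf1 by 0.98, Nkg7 by 0.87, Cd79a by 0.57 and Ptprc by 0.43; the T cell gene Cd3e stood at 0.41, the macrophage gene Cd68 at -0.36 and the neutrophil gene S100a8 at -0.41, and none of these passed. In the alveolar list Sftpc and Lamp3 fell by 0.20 and 0.42 (2 of 11), with Sftpa1 and Napsa at -0.26 and -0.22; 7 of the 11 were lower and 1 higher at an unadjusted p under 0.05. In the endothelial list Cldn5 fell by 0.46 (1 of 7). Emcn, Cdh5 and Pecam1 stood at -0.27, -0.15 and -0.11, and Kdr, Tek and Vwf at 0.23, 0.18 and 0.04, none passing; 3 of the 7 were lower and 2 higher at an unadjusted p under 0.05. Each of these calls is from edgeR's quasi-likelihood test without WT replicate 1, in which 0 of the tested striated muscle (9), cardiac muscle (7), squamous epithelium (5) and cartilage (3) markers passed; with all 6 libraries 0 markers of any list passed. Cd3e, Cd68, S100a8, Kdr, Tek, Vwf, Myh7, Ckm, Mb, Tnnt3 and Pygm were added after their values were seen. By log2 fold change with and without WT replicate 1, the striated muscle genes Tnni2, Casq1, Acta1 and Myh2 stood at -9.50 and -1.69, -4.65 and -0.93, -10.24 and -0.18, and -6.93 and -0.59. The other 5 tested striated muscle genes were above 0 without WT replicate 1, Myh7 at 1.504, Ckm at 0.74, Mb at 0.66, Tnnt3 at 0.22 and Pygm at 0.17, and the median of the 9 was 0.17. The cardiac genes Ryr2, Myh6, Tnni3 and Tnnt2 stood at 1.56 and 1.27, 1.59 and 1.11, 1.00 and 0.65, and 1.08 and 0.72. Krt13, Krt14, Krt4 and Krt10 of the squamous list stood at -11.42 and -1.34, -4.30 and -1.77, -9.23 and 0.33, and 0.50 and 0.57, and the cartilage genes Col11a2, Comp and Chad at 0.42 and 0.07, 0.35 and 0.22, and 0.13 and 0.07.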
